A study of Mus musculus with 8 samples.

Results

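The 62 genes described here encode the chains of the mouse collagens together with the enzymes, chaperone and matrix proteins that fold, cross-link or organise them. They were chosen by name: 44 collagen chain genes, and 18 further genes (the procollagen C-proteinase enhancers, the lysyl oxidases, the lysyl and prolyl 3-hydroxylase families, the collagen chaperone Serpinh1, and the matrix genes Sparc, Tnc and Fn1). All 62 were found among the 53170 named genes of the deposited count table, and 26 of them were counted often enough to test.

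Collagens are trimers of chains wound into a triple helix. Fibrillar collagens are made mainly by fibroblasts and bear tensile load, whereas collagen IV forms the sheet-like network of the basement membrane on which epithelia rest, and collagen XVIII sits in that membrane as a proteoglycan. Before secretion the chains are hydroxylated on proline and lysine in the endoplasmic reticulum, and after secretion procollagens are trimmed and cross-linked by lysyl oxidases and peroxidasin.

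RNA was sequenced from organoids (three-dimensional epithelial cultures) grown from the hindstomach, the glandular stomach, of mouse embryos at embryonic day 18.5 and kept 5 days in growth medium. The 4 control libraries had the genotype Shh-Cre, and the 4 YAP5SA libraries had the genotype Shh-Cre;YAP5SA. All 8 libraries therefore carried Shh-Cre, a recombinase driven by the Sonic hedgehog gene, which is active in foregut epithelium. YAP5SA is an active mutant of YAP, the transcriptional coactivator restrained by the Hippo kinases. Separate embryos or cultures are not stated in the labels for libraries of the same group, so the spread behind each p-value is that between libraries and may be technical.

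Total counts ran from 13672268 to 19710648 per library. The sex of the cells differed between the groups in all 8 libraries. Xist, the RNA of the inactive X chromosome, was at 675.6 to 1049 CPM (the usual depth-scaled read count, on TMM-scaled library sizes) in controls and at 0.412 to 2.76 CPM in YAP5SA, and the Y-linked Eif2s3y averaged 0.0683 and 101.6 CPM, so genotype and sex cannot be told apart in any difference given here. Controls held 160.0 ± 7.2 CPM of mouse Yap1, and YAP5SA libraries held 153.3 ± 4.2 CPM (SD, n = 4 each), which does not check the labels, since whether reads of the transgene were counted on this gene is not given in the sources used here. Epithelial markers were abundant in both groups, with 6 genes summing to 7594 to 8134 CPM in controls and 6307 to 6556 CPM in YAP5SA. Of these, 1 rose (Epcam) and 3 fell (Cdh1, Krt8 and Krt19), each by less than 2-fold. The 10 fibroblast markers were close to absent, at 0.750 to 1.30 CPM in all in controls and 0.442 to 1.10 CPM in YAP5SA, with Lum and Twist2 at 0 in every library. The 6 smooth muscle markers summed to 0.764 to 2.17 CPM in controls and 0.648 to 1.49 CPM in YAP5SA, with Actg2 at 0. Of 4 mesothelial markers, Upk3b and Lrrn4 rose (from 4.23 to 18.6 CPM and from 3.76 to 7.58 CPM on average), while the defining factor Wt1 was at 0 in controls and 0.0469 CPM in YAP5SA. The 6 endothelial markers summed to 6.57 to 13.8 CPM in controls and 1.29 to 2.83 CPM in YAP5SA, of which 1 rose and 1 fell, and the 5 immune markers to 18.8 to 38.3 and 9.25 to 10.4 CPM, of which 1 rose and 1 fell. The 4 basal squamous markers summed to 1.78 to 3.68 CPM and 0.353 to 0.772 CPM, of which 1 fell, and the 5 enteric neural markers to at most 1.41 CPM, with none tested. The part of these cell types in the results was not tested. In bulk RNA, fewer cells of a type and less RNA per cell cannot be told apart.

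Collagen transcripts in these organoids came mostly from basement membrane chains, and their make-up differed between the groups. Col4a1 and Col4a2 were 5.21-fold and 6.61-fold higher in YAP5SA, and Pcolce, an enhancer of procollagen trimming, was 11.5-fold higher. Col18a1 was 15.5-fold lower, Fn1 (fibronectin) 3.26-fold lower and Plod2, a lysyl hydroxylase, 2.89-fold lower. Among the 26 that could be tested, 10 rose, 9 fell and 7 stayed short of the threshold. The threshold was an adjusted p of 0.05, from the quasi-likelihood test of edgeR with Benjamini-Hochberg adjustment over all 14058 tested genes. These 19 are 73.1% of those tested, beside 49.1% of all tested genes; over all genes 23.6% rose and 25.5% fell. Changes of at least 2-fold were found in 15 of the 26 (8 higher and 7 lower), beside 13.8% of all tested genes (5.26% higher and 8.59% lower). The 4 libraries of one group lay clear of the 4 of the other in 19 of the 26, beside 45.7% of all tested genes. The median log2 fold change was 0.18 over the 26 genes and 0.0041 over all tested genes. A low gene that passes the filter through its higher group alone has to differ, so these counts and shares describe the tested genes and not all 62. Among such genes were Col8a1, Col12a1, Col26a1, P3h2 and Tnc, carried by YAP5SA, and Col14a1 and Col27a1, carried by controls. For these a difference was partly built in by the filter, and their adjusted p-values given below are to be read with that limit.

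**Figure D1:**
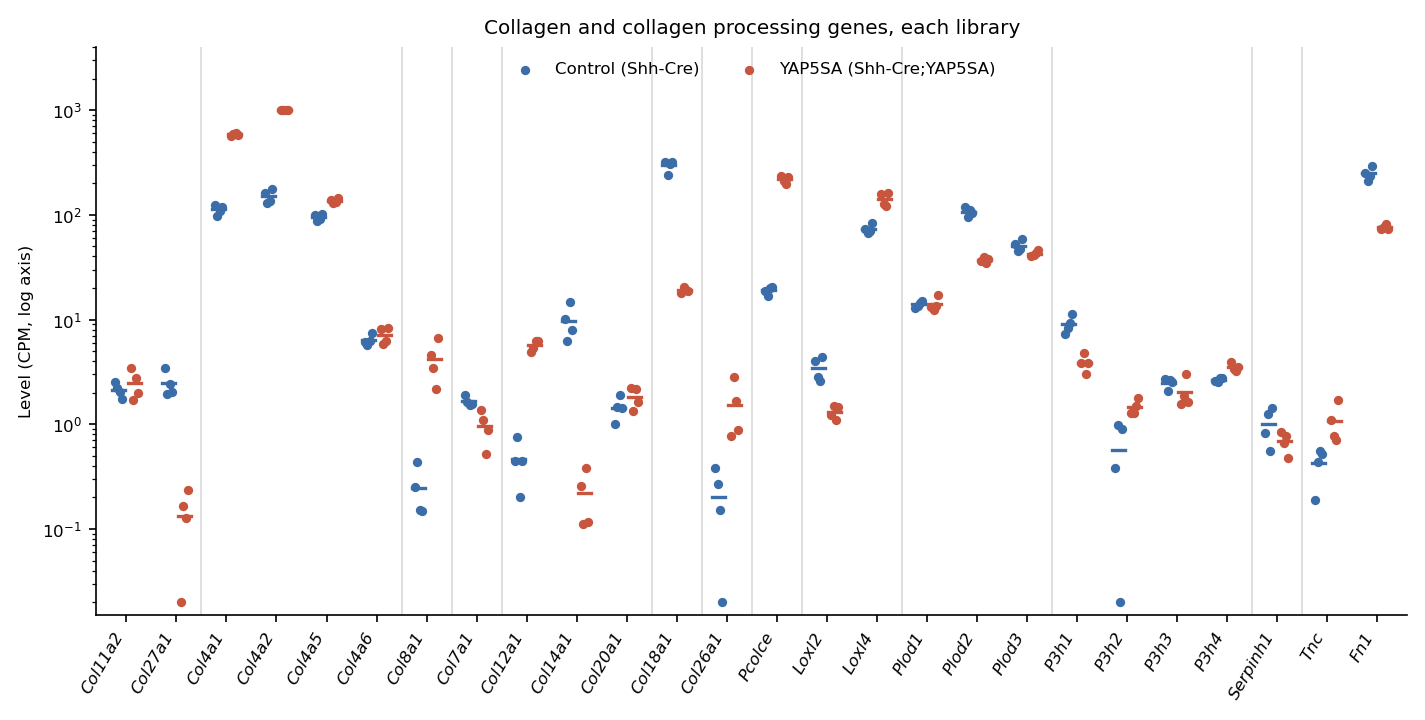
Level of each of the 26 tested genes in every library, in CPM on a log axis, with controls in blue and YAP5SA in red; points are libraries, short bars are group means, vertical lines part the roles, and a value of 0 is drawn at 0.02 CPM. The 4 YAP5SA points of Col4a2 sit between 991 and 1012 CPM, and those of Col18a1 between 17.7 and 20.3 CPM against 242.5 to 320.2 CPM in controls.

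Collagen IV chains, the network formers of the basement membrane, were the group with the most abundant transcripts in YAP5SA. Col4a1 was at 124, 98.2, 108 and 119 CPM in controls 1 to 4 and at 569.6, 585, 602 and 582 CPM in YAP5SA 1 to 4. Col4a2, its partner in the most widespread collagen IV trimer, was at 161, 131, 136 and 177 CPM in controls and at 991, 998, 1012 and 993 CPM in YAP5SA. Every YAP5SA library was above every control for both genes, and the YAP5SA libraries lay close together, with coefficients of variation of 2.26% for Col4a1 and 0.926% for Col4a2 against 10.3% and 14.3% in controls. The log2 fold changes were 2.38 ± 0.07 (SE) for Col4a1 and 2.73 ± 0.08 for Col4a2 (edgeR, adjusted p = 3.05e-15 and 7.81e-14).

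Col4a1 and Col4a2 lie head to head on chromosome 8, and the windows around their starts (250 bases before to 50 after) are shown because the genes rose together. The sequences are those of RefSeq on GRCm38.p6, a later build than the mm9 named for the files, and run 5′ to 3′ on the strand of each gene. The annotated starts lie 21 bases apart, and the 78 bases that the windows share on opposite strands are in capitals. The first window is chr8:11312777-11313076 on the minus strand and the second is chr8:11312555-11312854 on the plus strand.
Col4a1: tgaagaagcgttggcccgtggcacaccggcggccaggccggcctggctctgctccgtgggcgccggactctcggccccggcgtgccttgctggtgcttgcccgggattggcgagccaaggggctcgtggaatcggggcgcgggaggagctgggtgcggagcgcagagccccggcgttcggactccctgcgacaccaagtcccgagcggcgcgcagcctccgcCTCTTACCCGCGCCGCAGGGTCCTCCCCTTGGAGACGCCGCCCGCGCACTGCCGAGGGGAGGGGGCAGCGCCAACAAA
Col4a2: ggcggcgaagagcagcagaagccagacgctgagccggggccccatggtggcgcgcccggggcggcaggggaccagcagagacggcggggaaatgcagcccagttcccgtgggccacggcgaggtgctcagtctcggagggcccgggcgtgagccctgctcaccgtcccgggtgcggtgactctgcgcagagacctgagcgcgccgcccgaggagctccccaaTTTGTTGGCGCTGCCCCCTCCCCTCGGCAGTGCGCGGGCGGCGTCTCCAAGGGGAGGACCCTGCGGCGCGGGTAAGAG

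The rise of the pair was unequal. Col4a1 over Col4a2, a ratio of read counts within a library that does not depend on scaling, was 0.769, 0.750, 0.795 and 0.675 in controls and 0.575, 0.587, 0.595 and 0.586 in YAP5SA. All YAP5SA ratios were below all control ratios, a difference of -0.35 on the log2 scale (exact two-sided permutation test over the 8 libraries, p = 0.0286, the smallest that 4 against 4 can give, and 0.0286 after Benjamini-Hochberg adjustment over 4 pairs). How often ratios of other gene pairs part the groups was not computed, here or for the partner ratios below. Exons of other genes cover 0.3% of the Col4a1 and 1.0% of the Col4a2 exon length in GENCODE M21.

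The X-linked chains Col4a5 and Col4a6, which form trimers of more specialised basement membranes, changed less. Col4a5 was at 99.0, 87.1, 90.7 and 101 CPM in controls and at 137, 128, 134 and 145.5 CPM in YAP5SA, again with no overlap. It rose 1.45-fold (log2 fold change 0.53 ± 0.06 SE, edgeR, adjusted p = 8.18e-07). Col4a6 was far lower, at 6.13, 5.74, 6.21 and 7.43 CPM in controls and 8.09, 5.85, 6.18 and 8.24 CPM in YAP5SA, and the groups overlapped (log2 fold change 0.16, edgeR, adjusted p = 0.41). These genes also lie head to head, with annotated starts 1343 bases apart and windows that share no base. The part of the promoter layout in the changes of either pair was not tested. Col4a5 over Col4a6 was 13.5 to 16.1 in controls and 16.9 to 21.8 in YAP5SA, higher by 0.39 on the log2 scale (exact two-sided permutation test, p = 0.0286, adjusted 0.0286). Col4a3 and Col4a4, chains of the kidney filter, were too low to test, with 19 and 27 counts over the 4 libraries of each group for Col4a3 (control, then YAP5SA) and 8 and 63 for Col4a4, whose groups did not overlap. Col4a4 was called higher where the filter admitted it, as in DESeq2 (log2 fold change 2.96, adjusted p = 0.000305).

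**Figure D2:**
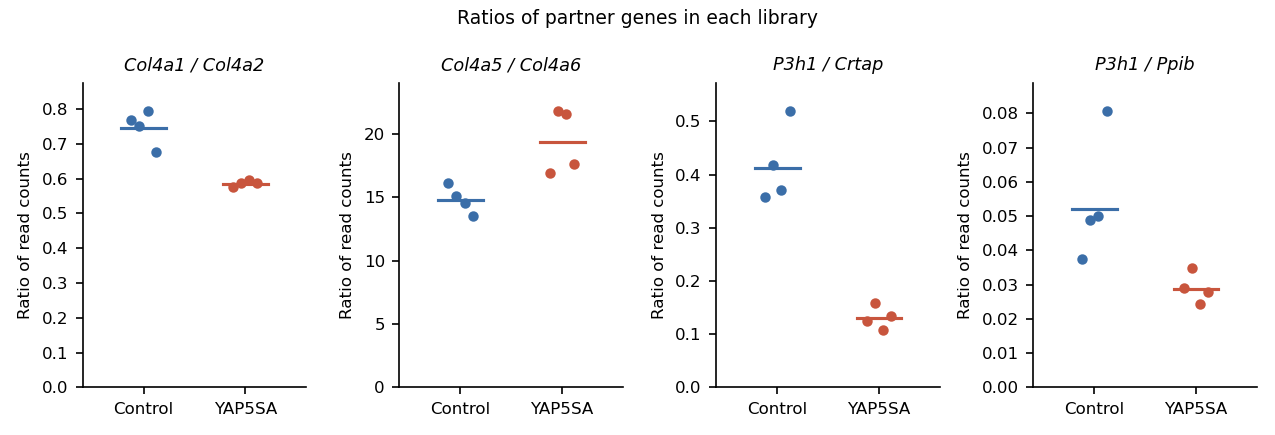
Ratio of read counts of partner genes in each library (points), with the geometric mean of each group as a bar; the linear axes start at 0. The groups do not overlap in any of the 4 panels, with Col4a1 over Col4a2 at 0.675 to 0.795 in controls and 0.575 to 0.595 in YAP5SA. Of all tested genes taken singly, 45.7% show no overlap, and the share over other gene pairs was not computed.

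Col18a1, the multiplexin chain whose C-terminal fragment is endostatin, went the other way. It was at 320, 242.5, 307 and 318.5 CPM in controls and at 17.7, 20.3, 19.3 and 18.9 CPM in YAP5SA. Control 2 was the lowest control and still more than 10 times any YAP5SA library. The log2 fold change was -3.96 ± 0.09 (SE, edgeR, adjusted p = 2.5e-15). Col15a1, the other multiplexin, had 11 counts over all controls and 1 over all YAP5SA libraries and was not tested.

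RefSeq gives Col18a1 a pair of starts on chromosome 10, and gene-level counts do not tell their transcripts apart. The window of the downstream start, chr10:77113656-77113955 on the minus strand of GRCm38.p6, is shown because it holds 2 matches to GGAATG, the core motif of the TEAD factors through which YAP binds DNA (searched on both strands, also as CATTCC), marked in capitals.
Col18a1: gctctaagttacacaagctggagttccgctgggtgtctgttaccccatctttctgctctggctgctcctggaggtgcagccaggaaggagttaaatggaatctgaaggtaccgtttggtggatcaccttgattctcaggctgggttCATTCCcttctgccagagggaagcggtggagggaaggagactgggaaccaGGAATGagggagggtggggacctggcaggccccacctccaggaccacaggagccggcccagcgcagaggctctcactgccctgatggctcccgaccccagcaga

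The upstream window of Col18a1 held no match, and binding of TEAD factors or YAP at either window was not tested. Of the 18 tested genes with a window in the RefSeq table, 5 had a match, each in 1 window, or 5 of 21 windows: Col18a1 and P3h1, which fell, and Col20a1, Col4a6 and P3h3, which did not pass the test. No window of a member that rose held a match, nor did those of Col27a1, Col7a1 and Plod3, which fell. Col12a1, Col26a1 and P3h2, which rose, and Col14a1, Fn1, Loxl2 and Plod2, which fell, had no window. The windows are too few to set members that rose against members that fell. Over all 32851 windows, 14.7% held GGAATG and 1.36% held it at least 2 times. None of the 21 member windows held the AP-1 motif TGANTCA, which reads the same on both strands, beside 7.81% of all windows.

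Set per kilobase of exon, levels of different genes can be compared. By this measure Col18a1 shared the collagen transcripts with the collagen IV chains in controls and held little of them in YAP5SA. In controls Col18a1 led with 42.3 ± 5.24 CPM per kb, followed by Col4a2 with 22.8 ± 3.27, Col4a1 with 15.1 ± 1.56 and Col4a5 with 14.0 ± 0.97 CPM per kb (SD, n = 4). Col4a1 was above Col4a5 in each of the 4 controls, though their ranges over the controls overlapped. In YAP5SA Col4a2 led with 151 ± 1.4 CPM per kb, followed by Col4a1 with 78.3 ± 1.77, Col4a5 with 20.3 ± 1.1 and Col18a1 with 2.72 ± 0.15 CPM per kb. Col4a1 and Col4a2 together thus outweighed every other chain there. As a share of the summed level of all 44 chains, Col18a1 took 42.9% ± 1.6 in controls and 1.06% ± 0.06 (SD, n = 4) in YAP5SA. Col4a2 took 21.2% to 25.0% and then 58.6% to 59.3%, and Col4a1 14.9% to 15.7% and then 30.2% to 31.1%. The summed level was 83.8 to 107 CPM per kb in controls and 253 to 259 CPM per kb in YAP5SA. Lengths come from GENCODE M21, not from the annotation used for counting, so levels per kb are approximate.

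**Figure D3:**
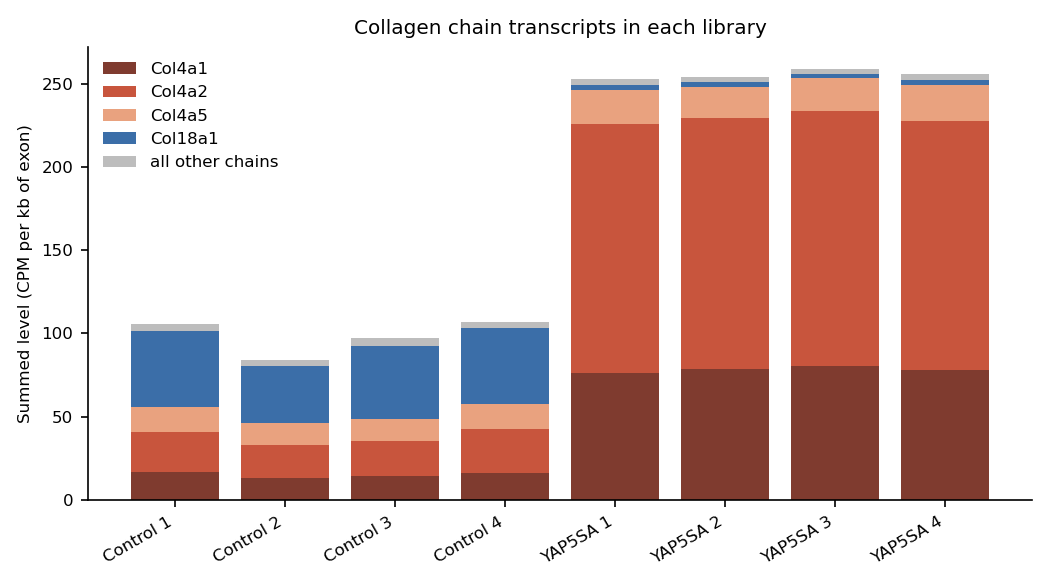
Summed level of collagen chain transcripts in each library, in CPM per kb of exon, stacked by chain on an axis that starts at 0. The control bars reach 83.8 to 107 CPM per kb with Col18a1 as the largest layer, and the YAP5SA bars reach 253 to 259 CPM per kb and consist mostly of Col4a2 and Col4a1.

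Among the fibril-associated collagens (FACIT), which coat fibrils without forming any, Col12a1 and Col14a1 moved apart at low levels. Col12a1 was at 0.442, 0.758, 0.204 and 0.450 CPM in controls and at 4.92, 5.30, 6.24 and 6.24 CPM in YAP5SA, and rose 12.1-fold (edgeR, adjusted p = 6.04e-09). Col14a1 was at 10.2, 6.17, 14.7 and 8.03 CPM in controls and at 0.259, 0.110, 0.386 and 0.118 CPM in YAP5SA. With 670 counts over all controls against 14 over all YAP5SA libraries, Col14a1 had the lowest log2 fold change of the 26 genes, -5.48 ± 0.38 (SE, edgeR, adjusted p = 6.25e-09). Col20a1 was at 1.01 to 1.88 CPM in controls and 1.33 to 2.20 CPM in YAP5SA and did not pass (edgeR, adjusted p = 0.357). Col16a1, Col9a1, Col9a2, Col9a3, Col19a1 and Col22a1 were not tested, at most 0.750 CPM in any library.

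Col8a1, a short-chain network collagen known from vessel walls and the corneal endothelium, was at 0.253, 0.433, 0.153 and 0.150 CPM in controls and at 4.60, 3.48, 2.19 and 6.60 CPM in YAP5SA. It rose 16.3-fold, from 17 counts over all controls to 280 over all YAP5SA libraries (edgeR, adjusted p = 2.67e-07). Its YAP5SA libraries spread widely, yet all lay above the controls. Col8a2 and Col10a1 stayed at or below 0.525 CPM and were not tested. Col26a1, a little studied chain, rose 7.27-fold from a trace level, with 14 counts over the controls and 104 over the YAP5SA libraries (edgeR, adjusted p = 0.000469). Its libraries were at 0.379, 0.271, 0.153 and 0 CPM in controls and 0.777, 2.82, 1.67 and 0.883 CPM in YAP5SA. Col28a1 had 23 counts in controls and 2 in YAP5SA, without overlap, and was not tested. DESeq2 admitted Col10a1 and Col28a1 and called both lower (log2 fold change -3.72 and -3.45, adjusted p = 0.0345 and 0.0298).

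Col7a1, which builds the anchoring fibrils beneath stratified epithelia, was at 1.89, 1.62, 1.53 and 1.58 CPM in controls and at 1.36, 1.10, 0.515 and 0.883 CPM in YAP5SA. It passed the test only just (log2 fold change -0.77 ± 0.30 SE, edgeR, adjusted p = 0.045). It no longer passed without control 1, 2, 3 or 4 (adjusted p = 0.102, 0.0725, 0.0623 and 0.0608, edgeR), nor without YAP5SA 2, 3 or 4 (0.0592, 0.142 and 0.0949, edgeR). DESeq2 did not call it either (adjusted p = 0.0887).

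Fibrillar collagens, the main products of fibroblasts, were close to absent from both groups. Of 11 such chains, 2 could be tested. Col27a1, a fibrillar chain of cartilage and some epithelia, was at 3.47, 1.95, 2.44 and 2.03 CPM in controls and at 0, 0.166, 0.129 and 0.236 CPM in YAP5SA. It fell by 4.11 on the log2 scale, from 166 to 9 counts over the libraries of a group (edgeR, adjusted p = 5.49e-07). Col11a2 was at 2.53, 2.22, 2.04 and 1.73 CPM in controls and 3.43, 1.71, 2.77 and 2.002 CPM in YAP5SA, with overlapping groups (edgeR, adjusted p = 0.532). The chains of the common interstitial fibrils were at trace level. Col1a1 had 41 and 17 counts over all controls and all YAP5SA libraries, Col1a2 54 and 23, and Col3a1 40 and 6. No library of either group exceeded 1.39 CPM for any of these. Col2a1, Col5a1, Col5a2, Col5a3, Col11a1 and Col24a1 were at most 0.505 CPM. Without a filter on low counts edgeR called Col3a1 and Col2a1 lower (log2 fold change -2.56 and -2.80, adjusted p = 0.00217 and 0.0493). DESeq2 called Col3a1 but not Col2a1 (adjusted p = 0.024 and 0.078). Col1a2 was called lower without control 2 or without YAP5SA 4 (adjusted p = 0.0284 and 0.0226, edgeR), and not in the other settings that admitted it: without YAP5SA 1, 2 or 3 (0.0675, 0.0897 and 0.126, edgeR), without a filter (0.0716, edgeR) or with DESeq2 (0.101).

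Collagen VI, the beaded filament collagen of connective tissue, was not tested for any of its 6 chains. Its summed level was 0.356 to 0.947 CPM in controls and 0 to 0.177 CPM in YAP5SA, and most of its counts belonged to Col6a1, with 25 counts over the controls and 3 over the YAP5SA libraries. DESeq2, which admitted Col6a1, called it lower (log2 fold change -3.08, adjusted p = 0.0307). Col6a2, Col6a3, Col6a5 and Col6a6 had 10 counts or fewer in a group, and Col6a4 had 0 in all libraries. The transmembrane collagens were as rare. Col17a1, the hemidesmosome collagen of basal keratinocytes, had 0 counts over the controls and 2 over the YAP5SA libraries, Col13a1 had 0 in all libraries, Col25a1 had 0 and 3, and Col23a1 had 1 and 9. A count of 0 over a group allows for up to 3 counts, so Col13a1, and in controls Col17a1 and Col25a1, were not detectable at this depth rather than shown to be absent.

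Among the genes that trim procollagen, Pcolce, which enhances the proteinase that removes the C-propeptide, was at 18.8, 16.7, 20.1 and 20.5 CPM in controls and at 234, 211, 196 and 229.7 CPM in YAP5SA. The groups were far apart, and Pcolce had the lowest p of the 26 genes (log2 fold change 3.52 ± 0.08 SE, edgeR, adjusted p = 1.42e-16). Pcolce2 was not tested, at most 0.375 CPM. Bmp1, the proteinase that Pcolce enhances, went the other way, from 5.85 ± 1.23 to 2.26 ± 0.83 CPM (edgeR, adjusted p = 0.000139). The other proteinases of this kind (Tll1, Tll2, Adamts2, Adamts3 and Adamts14) were too low to test.

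The lysyl oxidases, copper enzymes that start collagen and elastin cross-links, were represented mainly by Loxl4. Loxl4 was at 73.3, 67.1, 69.6 and 83.4 CPM in controls and at 158, 127, 121 and 163 CPM in YAP5SA, and rose 1.94-fold (edgeR, adjusted p = 2.13e-06). Loxl2, which acts on collagen IV, was at 4.04, 2.82, 2.60 and 4.43 CPM in controls and at 1.23, 1.49, 1.09 and 1.47 CPM in YAP5SA, and fell 2.58-fold (edgeR, adjusted p = 0.000175). The groups did not overlap for either gene. Lox, Loxl1 and Loxl3 stayed at or below 0.821 CPM and were not tested.

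The 3 lysyl hydroxylases, which prepare collagen lysines for cross-links and sugars, did not move together. Plod2, whose product directs hydroxylation of the telopeptides, was at 119, 95.4, 112 and 103 CPM in controls and at 36.5, 39.2, 34.3 and 38.1 CPM in YAP5SA, a log2 fold change of -1.53 ± 0.07 (SE, edgeR, adjusted p = 5.87e-12). Plod3 fell 1.19-fold, from 52.1, 45.3, 47.0 and 59.0 CPM to 40.6, 41.0, 43.0 and 45.6 CPM, and here YAP5SA 4 overlapped the lowest control (edgeR, adjusted p = 0.0151). Exons of Znhit1 and a microRNA gene cover 11.9% of the Plod3 exon length. Plod1 was at 13.01, 13.4, 14.4 and 15.1 CPM in controls and 13.1, 12.4, 13.3 and 17.1 CPM in YAP5SA, with overlapping groups (a log2 fold change of 0.00 ± 0.11 SE, edgeR, adjusted p = 0.985). Per kilobase of exon Plod2 led the family in controls (19.9 ± 1.88 CPM per kb, Plod3 11.3 ± 1.36), and Plod3 led it in YAP5SA (9.42 ± 0.51 CPM per kb, Plod2 6.87 ± 0.39).

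Prolyl 3-hydroxylases modify single prolines of the helix, and P3h1 does so in a complex with Crtap and the cyclophilin Ppib. P3h1 was at 7.20, 8.34, 9.37 and 11.2 CPM in controls and at 3.82, 4.75, 3.03 and 3.89 CPM in YAP5SA, and fell 2.31-fold (edgeR, adjusted p = 1.01e-05). Its partners differed from it: Crtap rose from 21.8 ± 2.5 to 29.6 ± 1.1 CPM and Ppib fell from 172.5 ± 24.2 to 134.3 ± 6.6 CPM (edgeR, adjusted p = 0.000367 and 0.00194). P3h1 over Crtap was 0.358 to 0.520 in controls and 0.107 to 0.158 in YAP5SA, a log2 difference of -1.66, YAP5SA minus control (exact two-sided permutation test, p = 0.0286, adjusted 0.0286). Since P3h1 fell and Crtap rose, both without overlap, this test could only give the smallest possible p and adds no support. P3h1 over Ppib was 0.0376 to 0.0808 in controls and 0.0243 to 0.0348 in YAP5SA, a difference of -0.86 (exact two-sided permutation test, p = 0.0286, adjusted 0.0286). Exons of Snx22 cover 25.0% of the Ppib exon length.

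P3h2, the family member known from basement membrane collagen, was at 0.379, 0.975, 0 and 0.900 CPM in controls and at 1.29, 1.27, 1.48 and 1.77 CPM in YAP5SA. It rose 2.65-fold (edgeR, adjusted p = 0.0376), but not past the threshold without control 1 (0.0926) or without YAP5SA 1, 2, 3 or 4 (0.0605, 0.0583, 0.0689 and 0.082, edgeR). Without control 3, the library at 0 CPM, the log2 fold change was 0.93, under 2-fold (edgeR, adjusted p = 0.0499). An antisense gene model covers 28.4% of the P3h2 exon length. P3h4, a scaffold of lysyl hydroxylation, was at 2.59, 2.55, 2.75 and 2.78 CPM in controls and 3.95, 3.37, 3.22 and 3.53 CPM in YAP5SA. Its groups did not overlap, yet it did not pass (edgeR, adjusted p = 0.0789). P3h3 was at 2.72, 2.06, 2.65 and 2.55 CPM in controls and 1.55, 1.88, 3.03 and 1.65 CPM in YAP5SA (edgeR, adjusted p = 0.345).

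Serpinh1 encodes HSP47, the chaperone that binds the folded triple helix in the endoplasmic reticulum. It was at 0.821, 1.25, 0.560 and 1.43 CPM in controls and at 0.842, 0.663, 0.772 and 0.471 CPM in YAP5SA, with overlapping groups (log2 fold change -0.54 ± 0.37 SE, edgeR, adjusted p = 0.248). The low level of Serpinh1 stood beside the high level of Col4a1 and Col4a2: per kilobase of exon it was at 0.281 ± 0.066 CPM per kb in YAP5SA, against 78.3 and 151 CPM per kb for these chains.

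Of the 3 matrix glycoprotein genes, Fn1 was the most abundant. It was at 252, 209, 237 and 295.5 CPM in controls and at 72.7, 76.6, 81.8 and 73.2 CPM in YAP5SA, with a log2 fold change of -1.71 ± 0.09 (SE, edgeR, adjusted p = 2.59e-10). Tnc, which encodes tenascin-C, was at 0.189, 0.433, 0.560 and 0.525 CPM in controls and at 1.10, 0.773, 0.708 and 1.71 CPM in YAP5SA. It rose 2.47-fold at a trace level (edgeR, adjusted p = 0.0144). Without control 1 or YAP5SA 4 the log2 fold change was 1.06 or 0.98 and the call was lost (adjusted p = 0.0511 and 0.0778, edgeR). Sparc, a collagen-binding protein abundant in most mesenchyme, had 31 counts over the controls and 15 over the YAP5SA libraries and was not tested.

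**Figure D4:**
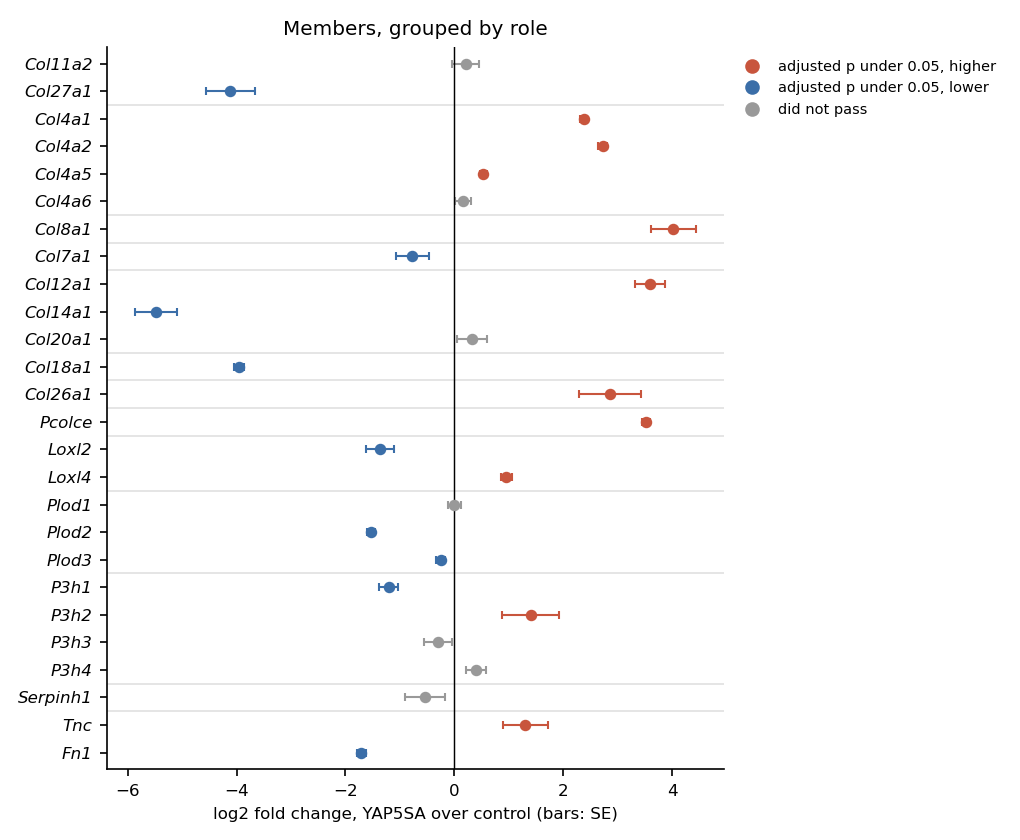
Log2 fold change, YAP5SA over control, of the 26 tested genes with SE bars, parted by role; red genes rose, blue genes fell and grey genes did not pass at an adjusted p under 0.05. Of the collagen IV chains 3 rose and none fell, of the lysyl hydroxylases 2 fell and none rose, and the FACIT collagens, lysyl oxidases, prolyl 3-hydroxylases and matrix glycoproteins each hold changes in both directions.

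Further genes of collagen modification, export, binding and breakdown were examined as a list of 47, of which 26 could be tested: 7 rose, 13 fell and 6 did not pass (76.9% changed, beside 49.1% of all tested genes). Their median log2 fold change was -0.13. Over all tested genes 23.6% rose and 25.5% fell. The limit of the filter given above holds here too, as for Colgalt2, which passed through its controls alone. Prolyl 4-hydroxylation stabilises the triple helix, and both tested genes for its catalytic subunits rose. P4ha2 rose 3.39-fold, from 46.6, 33.1, 45.6 and 43.0 CPM to 131, 147, 152 and 138.5 CPM, and P4ha1 rose 1.28-fold (edgeR, adjusted p = 9.84e-11 and 0.000115). The shared subunit gene P4hb was at 1346 ± 46 CPM in controls, 1448 ± 64 CPM in YAP5SA, and did not pass (edgeR, adjusted p = 0.0961).

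Of the galactosyltransferases that glycosylate hydroxylysine, Colgalt1 rose from 92.0 ± 4.5 to 119 ± 2.9 CPM (edgeR, adjusted p = 1.37e-05), and Colgalt2 fell to a trace. Exons of Unc13a cover 11.4% of the Colgalt1 exon length. Colgalt2 had 485 counts over the controls and 3 over the YAP5SA libraries, a ratio of pooled levels of 159 (exact 95% interval 54.0 to 773, counting error only). Its fitted log2 fold change was -7.11 (edgeR, adjusted p = 4.23e-09), and -8.00 without YAP5SA 2, which held 2 of the 3 counts. Of the folding partners besides Crtap and Ppib, Tmem38b, an endoplasmic reticulum cation channel gene, fell 1.49-fold (edgeR, adjusted p = 5.34e-06), Fkbp14 did not pass and Fkbp10 was not tested.

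Of the 8 genes of large-cargo export, by which procollagen leaves the endoplasmic reticulum, 4 fell, 2 rose and 2 did not pass, each change being under 2-fold. Over all tested genes 25.5% fell and 23.6% rose, and the group as a whole was not tested. Mia3, the procollagen export receptor TANGO1, fell from 220 ± 10.2 to 145.5 ± 7.7 CPM, and Mia2, Sec23a and Sec24d fell 1.34-fold, 1.44-fold and 1.24-fold (edgeR, adjusted p = 4e-08, 2.41e-06, 2.14e-06 and 0.00306). Sar1b and Klhl12 did not pass. The secretory pathway factor Creb3l1 rose 1.96-fold, from 13.4 ± 3.4 to 26.2 ± 3.0 CPM, and Creb3l2 rose 1.26-fold (edgeR, adjusted p = 7.74e-05 and 0.000402).

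Collagen receptors were lower where they changed. Itga2, a collagen-binding integrin chain of epithelia, was at 89.2, 85.3, 92.7 and 93.1 CPM in controls and at 5.24, 4.14, 3.28 and 7.01 CPM in YAP5SA, an 18.2-fold fall. Itga1, the integrin chain with a preference for collagen IV, fell 20.2-fold, from 14.9 ± 1.9 to 0.730 ± 0.132 CPM (edgeR, adjusted p = 8.8e-13 for Itga1 and 1.05e-12 for Itga2). Their common partner Itgb1 averaged 880.7 ± 11.6 CPM in controls against 850 ± 17.2 CPM in YAP5SA and did not pass (edgeR, adjusted p = 0.372). The receptor kinase gene Ddr1 fell 1.15-fold (edgeR, adjusted p = 0.0471). That call was lost without control 1 or 4 (0.0639 and 0.125, edgeR), without YAP5SA 1 or 4 (0.108 and 0.103), with the replicate block (0.0702), with DESeq2 (0.054) and with library-size scaling (0.0697).

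Outside the cell, Mmp14, a membrane-bound collagenase, was the single tested gene of 7 for collagen breakdown, and its 4 YAP5SA libraries lay between 158 and 161 CPM against 4.60 to 7.74 CPM in controls. Pxdn, the peroxidasin that cross-links collagen IV, fell from 23.8 ± 2.7 to 7.90 ± 1.09 CPM, whereas Col4a1 and Col4a2 rose (edgeR, adjusted p = 2.71e-09). Tgm2, which encodes a transglutaminase that binds fibronectin, fell 23.9-fold, from 136, 101, 136.5 and 98.0 CPM to 4.66, 5.25, 4.96 and 4.83 CPM (edgeR, adjusted p = 7.8e-13). Exons of Rprd1b and another gene model cover 21.8% of the Tgm2 exon length.

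**Figure D5:**
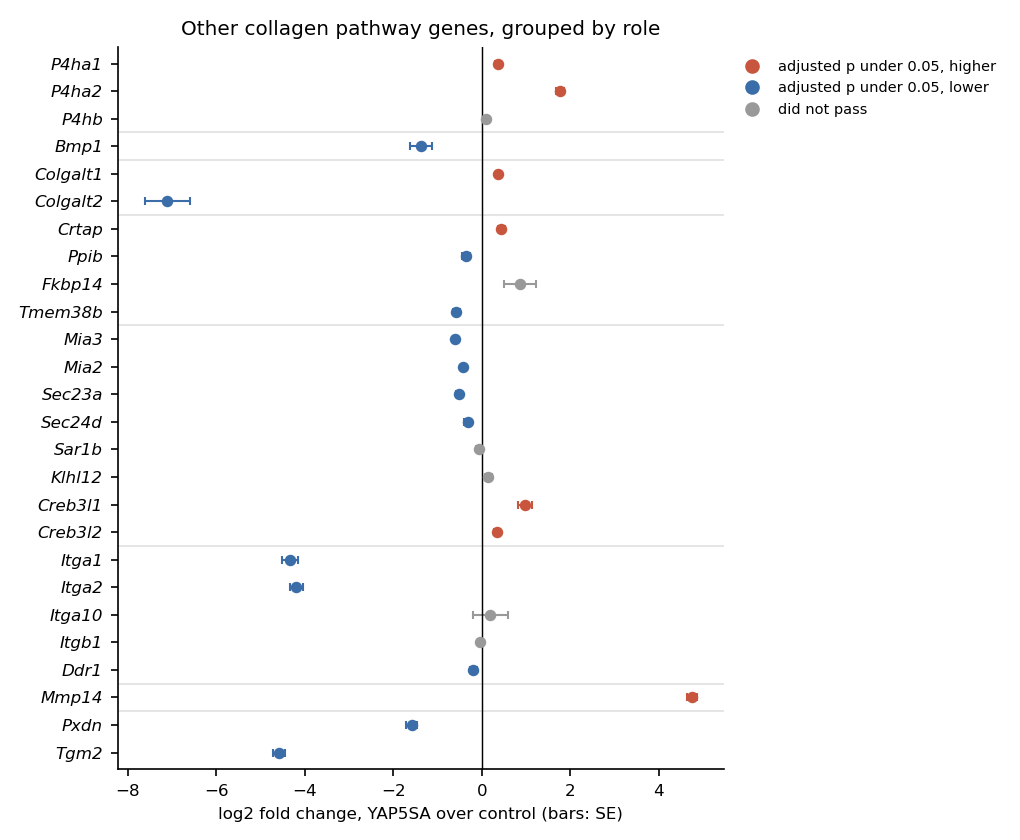
Log2 fold change, YAP5SA over control, of the 26 tested further genes of the collagen pathway with SE bars, parted by role; red genes rose, blue genes fell and grey genes did not pass at an adjusted p under 0.05. Itga1, Itga2, Tgm2 and Colgalt2 lie furthest to the left and Mmp14 and P4ha2 furthest to the right.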

How the data were processed

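The authors deposited raw read counts per gene for the 8 libraries in 1 table, from total RNA read in pairs of 150 bp (labels' protocols). The submitters' processing notes name cutadapt, HISAT2 2.0.1, HTSeq 0.6.1 and build mm9. For annotation, counting options and strand nothing is given in the sources used here, so reads of antisense or overlapping genes cannot be told apart. The 2639 of 56691 rows without a gene name (0.190% to 0.221% of a library's counts) were left out, and rows sharing a symbol were summed (none of them a member). Genes passing edgeR's filterByExpr (minimum count 10, minimum total 15) were kept, 14058 in all, scaled by TMM and compared by glmQLFTest after a robust glmQLFit (edgeR 4.0.16, R 4.3.3), group being the only term; standard errors are the log2 fold change over the root of F. CPM use TMM-scaled library sizes. Ratios of partner genes, with 0.5 counts added, were tested by exact permutation. Lists, roles and the naming rule were chosen with earlier results of these data known. By that rule every member was named. Values by library were required for the largest changes, the most abundant tested member of each role and called members averaging at least 50 CPM. Alternatives were RLE and library-size scaling, DESeq2 1.42.0, other filters, a threshold of 0.01, a replicate block and leaving out each library. The test was checked on simulated data in which far fewer genes were changed than were called here. That check does not cover changes as widespread as these. Same-numbered libraries did not deviate together (correlations -0.109 to 0.091), so the numbers were not taken as pairs. Library pairs of a group differed beyond sampling noise. Intervals cover counting error only.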

Additional observations from a re-analysis of the deposited data

How the results depend on the processing

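The 10 members called higher became 9 to 11 and the 9 called lower became 8 or 9 when each library was left out in turn. With the replicate block, 10 were higher and 9 lower, the same 19 genes, and in the further pathway genes only the call of Ddr1 was lost; the numbers did not pair the libraries, whose correlations did not exceed 0.091. DESeq2 called 11 higher and 12 lower, and no filter on low counts gave 11 and 13, through low genes such as Col3a1, Col6a1, Col10a1, Col28a1 and Col4a4 that the main filter left out. The stricter filter gave 8 and 9, since Col26a1 and Tnc were no longer tested. Of the alternative values of single members, 361 kept direction and side of the threshold and 21 lost the call (Col7a1, P3h2 and Tnc, and Plod3 at the threshold of 0.01). Plod1, at 0.003 and never called, changed sign in 5 settings: stricter filter (-0.004), replicate block (-0.008), and without control 1 (-0.039), control 2 (-0.021) or YAP5SA 4 (-0.113), with a range of -0.113 to 0.053 without 1 library. Partner ratio differences ranged, without 1 library, from -0.397 to -0.319 (Col4a1 over Col4a2), 0.33 to 0.453 (Col4a5 over Col4a6), -1.759 to -1.552 (P3h1 over Crtap) and -1.021 to -0.653 (P3h1 over Ppib), given as values, with no test run. At this depth 1 count is worth under 0.1 CPM, so the 36 untested members limit what can be said of fibrillar and transmembrane collagens.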
